A study of Mus musculus with 12 samples.

Results

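The insulin-like growth factor (IGF) family was followed through 12 RNA-seq libraries of C18-4 cells, an immortalized line of mouse spermatogonia. The family was taken as 10 genes by symbol: the ligands Igf1 and Igf2, the receptors Igf1r and Igf2r, and the binding protein genes Igfbp2, Igfbp3, Igfbp4, Igfbp5, Igfbp6 and Igfbp7. Of these 10 genes, 9 had a row among the 17576 genes of the deposited table and 7 passed a filter of at least 1 RPKM in at least 3 libraries (RPKM, the reads of a gene per kilobase of its length, corrected for the size of the library). Igfbp3 was not analysed here. Igf1 and Igfbp5 were under the filter in every group. The family was chosen on the level of Igfbp2 in the 2 control groups, so the values of those control groups are given as a description, without a test.

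Each of the 4 groups had 3 libraries. The groups C18_3NC (3NC below) and C18_5251KD (KD below) carried the LV3 lentivirus backbone, 3NC with a control shRNA and KD with shRNAs against lncRNA5251. The groups C18_5NC (5NC below) and C18_5251OV (OV below) carried the LV5 backbone, 5NC without an insert and OV with lncRNA5251. The cells of all groups were labelled with the strain IRC mouse and were grown on as stably transfected cells in medium with serum, and whether a group was 1 clone or a mixed population was not stated. The main text of the study gives 3 shRNAs mixed for the knockdown, the supplementary methods give 2 and name lncRNA8276 in the heading, and the group names of the labels were followed. Nothing in the labels says that the libraries of a group came from separate cultures, so the p-values below measure the spread between these libraries, which may be technical. In bulk RNA, a change in the share of cells that express a gene and a change in its RNA per cell cannot be told apart.

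IGF1 and IGF2 are secreted peptides that promote growth and survival. Both bind the IGF1 receptor, a tyrosine kinase that signals through IRS adaptors to PI3K and AKT and through SHC to the MAP kinases, whereas the IGF2 receptor (also the cation-independent mannose 6-phosphate receptor) takes up IGF2 and delivers it to lysosomes. The IGF binding proteins hold the ligands outside the cell with high affinity and are cleaved by proteases that release them; IGFBP7 is a related protein that binds IGF weakly. In the testis, Sertoli, Leydig and peritubular cells make IGF1, and IGF signalling acts on Sertoli cell number and on germ cells.

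The marker genes of the labelled cell type were mostly absent. Of 17 spermatogonial markers, 16 had a row and 2 of these, Id4 and Uchl1, had a mean of at least 1 RPKM. The markers Ret, Nanos2, Pou5f1 and Kit were listed at 0 in all group means, and 11 markers of this list were under 0.1 RPKM. Of 9 Sertoli markers with a row, 3 had a mean of at least 1 RPKM. Group means were from 50.3 to 54.9 RPKM for Wt1, from 4.54 to 6.23 for Gata4 and from 0.91 to 2.89 for Rhox5, while Sox9 and Cldn11 were near 0. Of the stromal markers, Col1a1 and Dcn were the most abundant, with Col1a1 at a mean of 256 RPKM for 3NC, 367 for KD, 381 for 5NC and 423 for OV. Over all genes, the libraries had sums of 533099 to 580920 RPKM, Spearman's correlation between libraries of 1 group was between 0.987 and 0.990 across genes, and the read depth behind these RPKM is unknown.

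The shRNA sequences are shown because KD and 3NC differ by them, so that a match in a family gene would bear on its level. The capitals mark the 7 bases of each listed strand that pair with bases 2 to 8 of its antisense strand, the seed.
Sh3NC: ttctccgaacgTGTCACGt
shlncRNA5251 KD #1: gctgggacttaatGTCCTTCt
ShlncRNA5251 KD #2: gcatgggcaattcAAACAAAt
ShlncRNA5251 KD #3: gcttattatgcatCGTAAACc
Against the transcripts of 21877 protein-coding mouse genes (GENCODE M21 on GRCm38), each knockdown sequence matched 1 gene exactly, Purb, and none of the 10 family genes. The seed site of KD #1 was found in transcripts of 6 family genes (Igf2, Igf1r, Igf2r, Igfbp3, Igfbp5 and Igfbp7), against 23.7% of all genes. The seed site of KD #2 was found in 8 of them (Igf1, Igf2, Igf1r, Igf2r, Igfbp2, Igfbp3, Igfbp5 and Igfbp7), against 39.3% of all genes. The seed sites of KD #3 and of the control sequence were in 0 family genes, against 2.51% and 6.95% of all genes. Transcripts of Igfbp4 and Igfbp6 held none of the 4 seed sites. The search covered whole transcripts without adjustment for their length, so these counts are not a measure of enrichment. A 7-base match is a description, and its part in the level of a gene was not tested. LncRNA5251 itself has no row in the table. Purb, the gene matched exactly, had a mean of 33.6 ± 0.624 RPKM for 3NC and 9.32 ± 0.806 for KD, against 30.7 ± 1.46 for 5NC and 27.1 ± 5.30 for OV (SD, n = 3).

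Igf2 was the ligand gene that was expressed, and it was lower in the LV5 groups. Its RPKM was 11.53, 11.01 and 12.58 in the 3NC libraries and 12.39, 11.89 and 11.22 in KD. It was 8.39, 8.55 and 7.60 in 5NC and 9.49, 10.41 and 8.73 in OV. KD and 3NC overlapped, every OV library was above every 5NC library, and every library on LV5 was below every library on LV3. From limma with Benjamini-Hochberg adjustment on log2(RPKM + 1), which is the test for all adjusted p-values below, KD differed from 3NC by a log2 fold change of 0.02 (95% interval -0.14 to 0.17, adjusted p = 0.876). For OV against 5NC it was 0.20 (95% interval 0.04 to 0.35, adjusted p = 0.0627), which missed the threshold of 0.05. It passed without OV replicate 3 (0.25, adjusted p = 0.0142). For OV against KD, Igf2 fell by 0.29 on the log2 scale (SE 0.07, adjusted p = 0.00259).

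Igf1 was low throughout. It was listed at 0.07, 0.10 and 0.13 RPKM for 3NC and at 0.05, 0.06 and 0.07 for KD. On LV5 it was listed at 0.33, 0.54 and 0.39 for 5NC and at 0.44, 0.37 and 0.29 for OV. The LV5 libraries were all above the LV3 libraries, at levels under 1 RPKM. An exact permutation test of group means gave a two-sided p = 0.2 for KD against 3NC, 0.6 for OV against 5NC and 0.1 for OV against KD, where 0.1 is the smallest p that 3 libraries against 3 can give.

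Both receptor genes rose in KD against 3NC. Igf1r, the signalling receptor, was at 5.96, 6.10 and 6.24 RPKM in 3NC and at 8.96, 8.66 and 8.64 in KD, with no overlap. It was at 7.08, 6.73 and 6.67 in 5NC and at 6.77, 6.61 and 7.58 in OV, which overlapped. The log2 fold change of Igf1r was 0.46 in KD against 3NC (SE 0.06, adjusted p = 1.76e-05) and 0.03 in OV against 5NC (95% interval -0.10 to 0.16, adjusted p = 0.777). Against KD, OV was lower by a log2 difference of -0.29 (adjusted p = 0.000654).

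Igf2r, the receptor that clears IGF2, was at 15.96, 16.91 and 15.86 RPKM in 3NC and at 22.82, 21.96 and 21.42 in KD. In 5NC it was at 21.15, 21.51 and 21.94, and in OV at 14.93, 17.76 and 19.21. The KD and 5NC libraries lay together above all 3NC and OV libraries. It rose by 0.42 in KD against 3NC (SE 0.07, adjusted p = 0.000147) and fell by 0.31 in OV against 5NC on the log2 scale (SE 0.07, adjusted p = 0.00956). The log2 difference of OV against KD was -0.34 (adjusted p = 0.000556). Set against 5NC in place of 3NC, KD had a log2 difference of 0.03, given without a test.

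**Figure D1:**
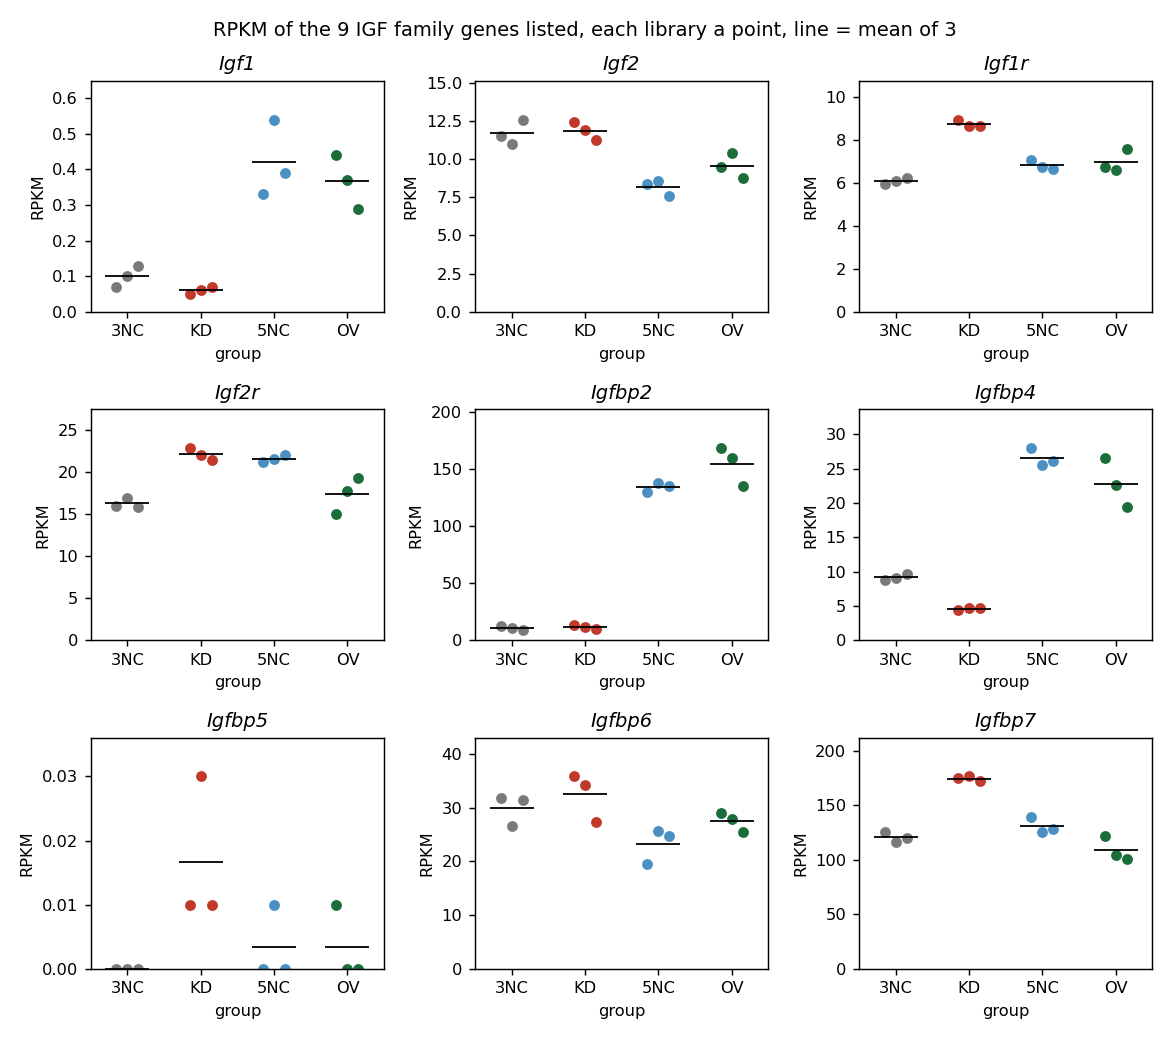
RPKM of the 9 family genes with a row in the table, 1 panel a gene with its own axis from 0, by group (3NC, KD, 5NC, OV); each point is a library and the line is the mean of 3. Igfbp2 lies near 11 RPKM in both LV3 groups and between 129.78 and 168.68 in both LV5 groups, while Igf1r and Igfbp7 are highest in KD.

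Igfbp2 and Igfbp4 separated the 2 backbones. Igfbp2, which binds both ligands, was at 12.94, 10.89 and 9.34 RPKM in 3NC and at 129.78, 138.26 and 135.71 in 5NC. The ratio of these means was 12.2, the difference by which the family was chosen. The LV3 and LV5 libraries that the choice did not use gave 13.10, 12.11 and 10.10 RPKM in KD and 168.68, 159.78 and 135.67 in OV. OV was higher than KD in every library, by 13.1-fold as the ratio of means and by a log2 fold change of 3.61 (SE 0.10, adjusted p = 1.27e-12). OV and KD also differ in insert and shRNA, and these cannot be told apart from the backbone. Within a backbone, Igfbp2 did not pass the threshold: its log2 difference from 3NC was 0.09 in KD (95% interval -0.14 to 0.31, adjusted p = 0.501) and that from 5NC was 0.19 in OV (95% interval -0.03 to 0.42, adjusted p = 0.191). Both use control values that entered the choice of the family. In OV against 5NC, OV replicate 3 lay among the 5NC libraries and the other OV libraries above them, and without it the value was 0.29 (adjusted p = 0.0471).

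Igfbp4, which binds both ligands and is cleaved by the protease PAPP-A, was at 8.77, 9.14 and 9.60 RPKM in 3NC and at 4.49, 4.69 and 4.65 in KD. It was at 28.03, 25.58 and 26.10 in 5NC and at 26.52, 22.57 and 19.43 in OV. All KD libraries were below all 3NC libraries, and both groups were below the LV5 groups. Igfbp4 fell by 0.86 in KD against 3NC on the log2 scale (SE 0.08, adjusted p = 7.46e-07). No other family gene tested fell past the threshold in KD. For OV against 5NC the log2 difference was -0.22 (95% interval -0.40 to -0.04, adjusted p = 0.0731), and -0.33 (adjusted p = 0.0152) without OV replicate 1. For OV against KD the log2 fold change was 2.08 (SE 0.08, adjusted p = 3.22e-11). For 5NC against 3NC it was 1.44, given without a test.

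Igfbp7, a secreted protein of the vessel wall and stroma, was the most abundant family gene in 3NC and KD. It was at 125.55, 116.63 and 119.68 RPKM in 3NC and at 175.02, 176.56 and 172.00 in KD, with no overlap. It was at 138.96, 125.79 and 127.90 in 5NC and at 121.94, 104.30 and 101.18 in OV, each OV library below each 5NC library. Igfbp7 rose by 0.53 in KD against 3NC (SE 0.06, adjusted p = 4.41e-06) and fell by 0.26 in OV against 5NC on the log2 scale (SE 0.06, adjusted p = 0.0104). The latter call was lost without OV replicate 2 (-0.23, adjusted p = 0.0545). OV was below KD by a log2 difference of -0.68 (adjusted p = 1.62e-07).

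Igfbp6, which prefers IGF2 over IGF1, did not pass the threshold in KD against 3NC, OV against 5NC or OV against KD. It was at 31.74, 26.57 and 31.39 RPKM in 3NC and at 35.83, 34.26 and 27.43 in KD. It was at 19.59, 25.59 and 24.81 in 5NC and at 29.04, 27.88 and 25.45 in OV. The libraries of KD and 3NC, and those of OV and 5NC, overlapped. Its log2 differences were 0.11 in KD against 3NC (95% interval -0.11 to 0.34, adjusted p = 0.387), 0.23 in OV against 5NC (95% interval 0.01 to 0.46, adjusted p = 0.126) and -0.23 in OV against KD (adjusted p = 0.0666). The last passed without KD replicate 3 (-0.34, adjusted p = 0.00927) and without 5NC replicate 1, a library outside that comparison (-0.23, adjusted p = 0.0378). Igfbp5, the neighbour of Igfbp2 on chromosome 1, was listed at no more than 0.03 RPKM in any library and at 0 in all 3NC libraries. The exact permutation test of its means gave p = 0.1, 1 and 0.3 for KD against 3NC, OV against 5NC and OV against KD (two-sided).

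Read together by level, the binding protein genes changed places between the backbones. In 3NC the order was Igfbp7, Igfbp6, Igfbp2 and Igfbp4, with the libraries of Igfbp2 overlapping those of Igfbp4. In 5NC the libraries of Igfbp2 and Igfbp7 overlapped at the top, and those of Igfbp4 and Igfbp6 overlapped below them. Igfbp2 made up 6.46% ± 0.886 of the summed RPKM of the 5 binding protein genes for 3NC and 5.26% ± 0.512 for KD, against 42.7% ± 1.48 for 5NC and 49.2% ± 1.39 for OV (SD, n = 3). The share of Igfbp7 was 70.7% ± 0.695 for 3NC and 78.2% ± 1.92 for KD, against 41.5% ± 2.14 for 5NC and 34.8% ± 1.43 for OV. The sum itself came to 171 ± 7.91 RPKM for 3NC, 223 ± 8.01 for KD, 315 ± 0.928 for 5NC and 314 ± 32.2 for OV.

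**Figure D2:**
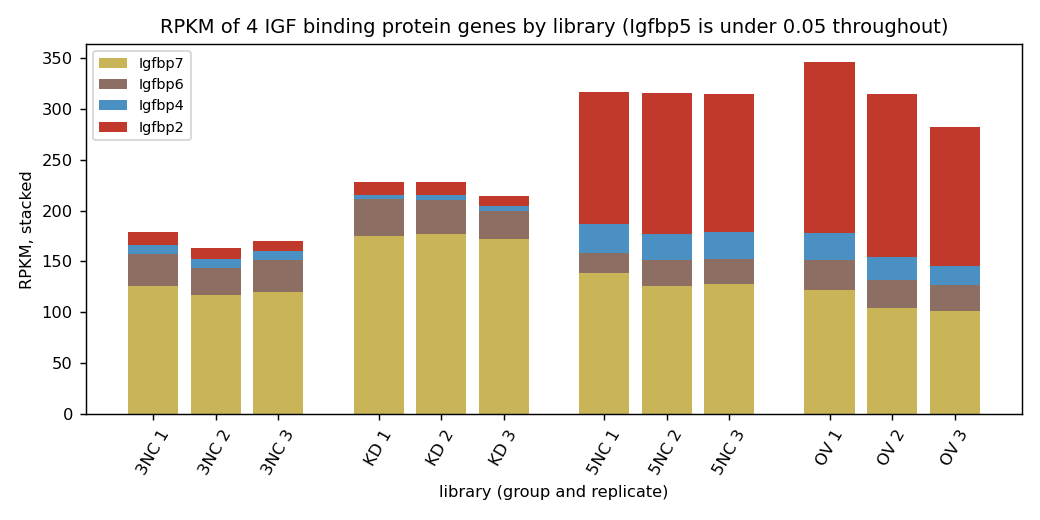
RPKM of 4 binding protein genes stacked for each of the 12 libraries, in the order of groups 3NC, KD, 5NC and OV, on an axis from 0. The Igfbp2 part of the bar is thin in the LV3 libraries and about as tall as that of Igfbp7 in 5NC, and the OV bars differ most among themselves, from 282 to 346 RPKM.

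The OV libraries varied in the same way over much of the family. OV replicate 3 had the lowest RPKM of the 3 OV libraries for Igf1, Igf2, Igfbp2, Igfbp4, Igfbp6 and Igfbp7 and the highest for Igf1r and Igf2r. It also had the lowest sum over all genes in OV, 537526 RPKM against 580920 and 566543, and the highest Purb of the OV libraries, 33.3 RPKM against 23.9 and 24.2. The part of this library in the OV results was not tested beyond leaving it out.

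In KD against 3NC, 3 of the 7 family genes tested rose (Igf1r, Igf2r and Igfbp7), where 31.9% of all 11435 genes tested rose at an adjusted p of at most 0.05. One, Igfbp4, fell, where 23.5% of all genes fell. The rule of the study, which asks for an adjusted p no higher than 0.001 and a change of 1 or more on the log2 scale, was met by 0 family genes and by 1.57% of all genes. The study applied its limits with DEGseq. Here and below they are applied to limma on log2(RPKM + 1), where the pseudocount makes changes of low genes smaller. The ratio of mean RPKM of Igfbp4 in KD to 3NC was 0.503. The median log2 fold change was 0.11 over the 7 genes and 0.04 over all genes. Nothing particular to the family is read from these counts.

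In OV against 5NC, 0 of the 7 rose and 2 fell (Igf2r and Igfbp7), where 8.07% of all genes rose and 13.9% fell. The rule of the study was met by 0 genes at all (0.00%) in limma, while 4240 genes had an unadjusted p under 0.05. In OV against KD, Igfbp2 and Igfbp4 rose and Igf2, Igf1r, Igf2r and Igfbp7 fell, where 31.1% of all genes rose and 39.7% fell. Igfbp2 and Igfbp4 met the rule of the study in that comparison, as did 4.36% of all genes. Between the controls 5NC and 3NC, Igfbp2 and Igfbp4 differed by more than 1 on the log2 scale, as were 2.66% of all genes, and nothing is read from this count since the family was chosen on that contrast. OV against KD shares its libraries with the other comparisons, so the 3 sets of values are not independent of each other.

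**Figure D3:**
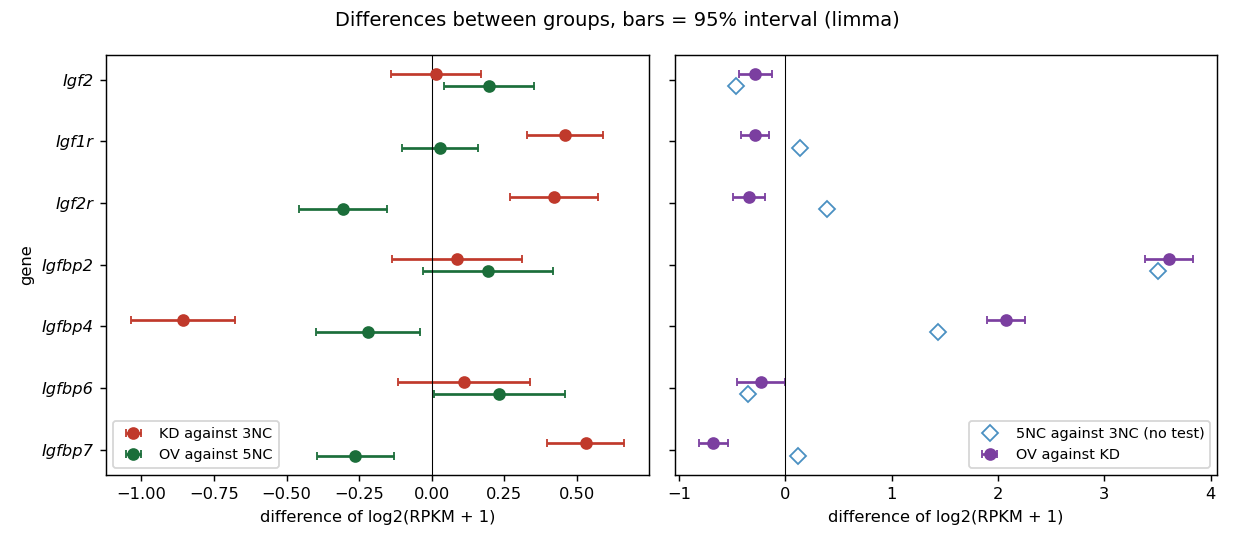
Differences of log2(RPKM + 1) for the 7 family genes tested; the left panel shows KD against 3NC and OV against 5NC, the right panel OV against KD with 5NC against 3NC as open diamonds without a test, and bars are 95% intervals from limma. Igf1r, Igf2r and Igfbp7 lie right of 0 in KD and Igfbp4 left of it, and in the right panel Igfbp2 lies at 3.61 and 3.50.

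Among stromal markers, the mean of Dcn was higher in both LV5 groups than in the LV3 groups, and the sum of the list was mostly Col1a1. Summed over 7 peritubular and mesenchymal marker genes, of which 5 had a mean of at least 1 RPKM (Acta2, Dcn, Col1a1, Pdgfra and Pdgfrb), it ranged from 282 to 292 RPKM for 3NC, from 374 to 457 for KD, from 513 to 520 for 5NC and from 525 to 565 for OV. Myh11, the defining smooth muscle gene of that list, stayed at or below 0.05 RPKM in the group means, and Col1a2, the partner chain of Col1a1, was listed at means from 0.02 in 3NC to 0.54 in 5NC. Dcn, the proteoglycan decorin, had means of 21.6 RPKM for 3NC, 36.1 for KD, 112 for 5NC and 108 for OV. Acta2 had means of 8.52 RPKM for 3NC, 18.6 for KD, 21.2 for 5NC and 13.6 for OV, and Pdgfra of 1.32, 1.09, 0.88 and 0.80. The part of these genes in the levels of Igfbp2 and Igfbp4 was not tested. The sums of 16 spermatogonial markers were 61.5 RPKM at the lowest, in KD, and 125 at the highest, in OV, almost all of it Uchl1. The 9 Sertoli markers in the table summed to between 57.5 and 65.9 RPKM over all libraries, the 4 Leydig markers to between 0.85 and 2.39, and the 4 macrophage markers to between 1.79 and 6.53.

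The promoter windows of Igfbp2 and Igfbp4 are shown because these genes differed most between backbones. They are from RefSeq on GRCm38.p6, 250 bases before to 50 bases after a start, and capitals mark matches to the motifs searched on both strands: the GC box (GGGCGG), the CCAAT box (read as CCAAT), the TATA box (read as TATAAA), the E box (CACGTG) and the AP-1 site (TGANTCA, N being any base). None of these motifs overlaps another in these windows.
Igfbp2 (chr1:72824230-72824529, plus strand): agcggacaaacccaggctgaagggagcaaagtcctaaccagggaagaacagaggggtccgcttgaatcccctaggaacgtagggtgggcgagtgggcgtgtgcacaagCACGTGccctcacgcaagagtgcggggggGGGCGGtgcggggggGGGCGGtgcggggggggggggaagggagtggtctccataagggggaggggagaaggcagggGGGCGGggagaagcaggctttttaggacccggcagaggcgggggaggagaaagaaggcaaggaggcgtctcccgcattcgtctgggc
Igfbp2, second start (chr1:72825137-72825436, plus strand): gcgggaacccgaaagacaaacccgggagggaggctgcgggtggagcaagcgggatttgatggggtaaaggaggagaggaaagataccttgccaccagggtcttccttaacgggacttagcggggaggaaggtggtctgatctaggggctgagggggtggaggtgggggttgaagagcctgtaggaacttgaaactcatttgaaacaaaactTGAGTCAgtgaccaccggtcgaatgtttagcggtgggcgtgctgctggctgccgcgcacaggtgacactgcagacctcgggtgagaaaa
Igfbp4 (chr11:99040994-99041293, plus strand): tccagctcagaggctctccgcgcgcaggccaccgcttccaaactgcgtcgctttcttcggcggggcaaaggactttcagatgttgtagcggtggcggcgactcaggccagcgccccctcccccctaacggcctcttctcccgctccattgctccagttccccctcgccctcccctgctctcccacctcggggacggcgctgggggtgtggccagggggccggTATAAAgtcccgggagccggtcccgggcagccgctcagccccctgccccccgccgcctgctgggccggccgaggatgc
The first window of Igfbp2 held 3 GC boxes and 1 E box at 67% GC, and the second held 1 AP-1 site at 57.3% GC. The window of Igfbp4 held 1 TATA box and 0 GC boxes at 71.3% GC. Among all 32851 windows of this length, 35.7% held a GC box, 37.4% a CCAAT box, 13.6% a TATA box, 7.15% the E box and 7.81% the AP-1 site, and the median GC content was 52.7%. No motif was found in both genes, and the libraries hold no measurement of binding at these windows.

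The genes whose pattern over the 12 libraries was most like that of Igfbp2, by the root mean square difference of log2(RPKM + 1) after centring each gene, were Cldn15 (0.61), Aebp1 (0.69) and Gas1 (0.75). Igfbp2 spanned 3.70 between its lowest and highest group mean on that scale. Cldn15, a tight junction claudin, had means of 0.83 RPKM for 3NC, 1.09 for KD, 7.92 for 5NC and 10.2 for OV. Aebp1, a matrix protein, was at 5.03, 2.13, 24.0 and 21.1 RPKM in the same order, so that unlike Igfbp2 its mean was lower in KD than in 3NC. Gas1, a membrane protein of growth arrest, was at 2.09, 2.61, 14.0 and 12.8 RPKM.

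For Igfbp4, which spanned 2.30, the most alike were Stc2 (0.17), Wisp1 (0.19) and Cemip (0.20). Stc2, stanniocalcin 2, an inhibitor of the IGFBP protease PAPP-A, averaged 1.75 RPKM for 3NC, 0.72 for KD, 7.15 for 5NC and 7.09 for OV. Pappa, the gene of that protease, was under the filter, at means of 0.017 RPKM for 3NC, 0.037 for KD, 0.61 for 5NC and 0.42 for OV. Wisp1, also called Ccn4, a matrix protein with an IGFBP-like domain, was at 18.5, 12.2, 55.3 and 52.9 RPKM. Cemip, which acts in hyaluronan breakdown, was at 1.74, 0.67, 5.63 and 5.82 RPKM. These likenesses are descriptions over libraries of the same table, which carry either the LV3 or the LV5 backbone.

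Among genes upstream of Igf1 in the growth hormone axis, 3 of 6 tested rose in KD against 3NC and 0 fell, and in OV against 5NC 0 rose and 3 fell. Over all genes tested, here and for the lists that follow, 31.9% rose and 23.5% fell in KD, and 8.07% rose and 13.9% fell in OV. The count of 3 that rose in KD was 2 without KD replicate 2. The count of 3 that fell in OV was 2 without the filter, under quantile normalization, in the fit to the 6 libraries and without any 5NC replicate or OV replicate 1 or 2. The list medians were 0.16 and -0.15, against 0.04 and -0.03 over all genes. Ghr, the growth hormone receptor, averaged 3.50 ± 0.326 RPKM for 3NC and 7.42 ± 0.275 for KD, against 5.52 ± 0.179 for 5NC and 3.81 ± 0.259 for OV (SD, n = 3). It rose by 0.91 in KD (adjusted p = 7.04e-08) and fell by 0.44 in OV (adjusted p = 0.00138) on the log2 scale. Stat5b, a transcription factor activated by that receptor, rose by 0.42 in KD (adjusted p = 5.63e-05) and fell by 0.29 in OV (adjusted p = 0.00724). Stat5a rose by 0.26 in KD (adjusted p = 0.0121), with -0.002 in OV (adjusted p = 0.987). Jak2, the kinase bound to the receptor, had a log2 difference of 0.05 in KD (adjusted p = 0.543) and fell by 0.23 in OV (adjusted p = 0.0323). In OV against KD, 4 of the 6 fell and 0 rose, beside 39.7% and 31.1% of all genes.

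The signalling genes downstream of Igf1r did not move in 1 direction. Of 31 tested of 33 listed, 8 rose and 9 fell in KD against 3NC (median -0.05, beside 31.9% and 23.5% of all genes), and 3 rose and 8 fell in OV against 5NC (median -0.08, beside 8.07% and 13.9%). The count that fell in OV was 14 without OV replicate 3 and 4 without OV replicate 1, OV replicate 2 or 5NC replicate 2. Insr, the insulin receptor, which forms hybrids with the IGF1 receptor, rose by 0.47 in KD (adjusted p = 8.74e-05) and fell by 0.35 in OV (adjusted p = 0.00703). The adaptor Irs2 fell by 0.51 in KD (adjusted p = 0.00307), with a log2 difference of -0.26 in OV (adjusted p = 0.151). The adaptor Shc1 fell by 0.39 in KD (adjusted p = 9.27e-06) and rose by 0.18 in OV (adjusted p = 0.0213). Grb14, an inhibitory adaptor of insulin-type receptors, rose by 0.38 in KD (adjusted p = 0.00246), with -0.14 in OV (adjusted p = 0.275). In OV against KD, 10 of the 31 rose and 11 fell, beside 31.1% and 39.7% of all genes, which is close to genes at large.

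Of the IGFBP proteases and their regulators, 7 of 17 listed were tested, and 3 rose and 2 fell in KD against 3NC (median 0.13, beside 31.9% and 23.5% of all genes), and 4 fell without the filter. Plat, tissue plasminogen activator, rose from 17.3 ± 0.837 to 27.0 ± 0.915 RPKM (log2 fold change 0.61, adjusted p = 4.56e-07). The serine protease Htra1 rose from 76.1 ± 2.30 to 107 ± 3.06 RPKM (0.48, adjusted p = 5.16e-07), and the matrix metalloprotease Mmp2 rose from 58.6 ± 1.09 to 70.1 ± 1.15 RPKM (0.26, adjusted p = 0.000229). Stc2 fell by 0.68 (adjusted p = 2.06e-06) and the metalloprotease Adam9 fell by 0.46 (adjusted p = 1.49e-05) on the log2 scale. In OV against 5NC, 1 rose and 1 fell (median -0.01, beside 8.07% and 13.9% of all genes): Htra1 rose by 0.15 (adjusted p = 0.0357) and Mmp2 fell by 0.42 (adjusted p = 7.76e-05). The rise of Htra1 was lost without OV replicate 1 or 2, without 5NC replicate 2 or 3, under quantile normalization and in the fit to the 6 libraries. Without OV replicate 3, 2 rose and 2 fell, and 2 fell also without KD replicate 3, without the filter and under quantile normalization. In OV against KD, 3 rose and 1 fell (5 and 2 without the filter), beside 31.1% and 39.7% of all genes. Stc2 met the rule of the study there, as did 4.36% of all genes, with a log2 fold change of 2.23 (adjusted p = 3.86e-12).

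Of the genes of IGF mRNA regulation and imprinting, 4 of 9 listed were tested, and 3 rose and 0 fell in KD against 3NC (median 0.19, beside 31.9% and 23.5% of all genes). Igf2bp3, which binds Igf2 mRNA, rose from 6.09 ± 0.385 to 11.2 ± 0.727 RPKM (log2 fold change 0.78, adjusted p = 8.97e-07). Its relative Igf2bp2 rose by 0.14 (adjusted p = 0.0242), and Ctcf, the insulator protein of the Igf2 and H19 locus, rose by 0.23 (adjusted p = 0.00104). The count of 3 that rose in KD was 2 without 3NC replicate 1, 2 or 3 and without KD replicate 1. Igf2bp1 had a difference of 0.07 (adjusted p = 0.363). In OV against 5NC, 1 of the 4, Igf2bp1, rose by 0.19 (adjusted p = 0.0337), a call lost without OV replicate 1 or 2, without 5NC replicate 2 or 3 and in the fit to the 6 libraries. None of the 4 fell (median -0.11), while 2 fell without OV replicate 3 and 1 without 5NC replicate 3. In OV against KD, 1 rose and 3 fell (2 rose without the filter), beside 31.1% and 39.7% of all genes. Igf2bp3 was past the rule of the study, as were 4.36% of all genes, at a log2 difference of -1.85 (adjusted p = 4.48e-11), and Ctcf was higher by 0.12 (adjusted p = 0.0467). The call of Ctcf was lost under quantile normalization, in the fit to the 6 libraries, and without any of 3NC replicates 1 to 3, 5NC replicates 1 to 3, KD replicates 1 and 2 or OV replicates 2 and 3.

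Of the IGFBP-like genes and the remaining IGFBP genes, 5 of 9 listed were tested, and 1 rose and 4 fell in KD against 3NC (median -0.56, beside 31.9% and 23.5% of all genes), and 2 rose without the filter. All 4 that fell are matricellular genes of the CCN family, which carry an IGFBP-like domain. Ctgf (Ccn2) fell from 61.2 ± 0.777 to 32.8 ± 0.930 RPKM (log2 fold change -0.88, adjusted p = 1.52e-09). Cyr61 (Ccn1) fell by 0.56 (adjusted p = 3.76e-07), Wisp1 by 0.56 (adjusted p = 1.63e-06) and Nov (Ccn3) by 0.20 (adjusted p = 0.0338). The count of 4 that fell in KD was 3 without 3NC replicate 1, without KD replicate 1 or 2 and in the fit to the 6 libraries. Kazald1, an IGFBP-related secreted gene, rose by 0.46 (adjusted p = 0.000463). In OV against 5NC, 1 rose and 0 fell (median 0.06), and that gene was Ctgf (0.25, adjusted p = 0.00379). Without OV replicate 3, 2 rose and 1 fell, and 2 rose also without KD replicate 3 and with the replicate block. In OV against KD, 4 rose and 1 fell (2 fell without the filter), beside 31.1% and 39.7% of all genes. Wisp1 (2.03, adjusted p = 1.33e-12) and Nov (1.21, adjusted p = 2.09e-09) met the rule of the study, as did 4.36% of all genes.

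**Figure D4:**
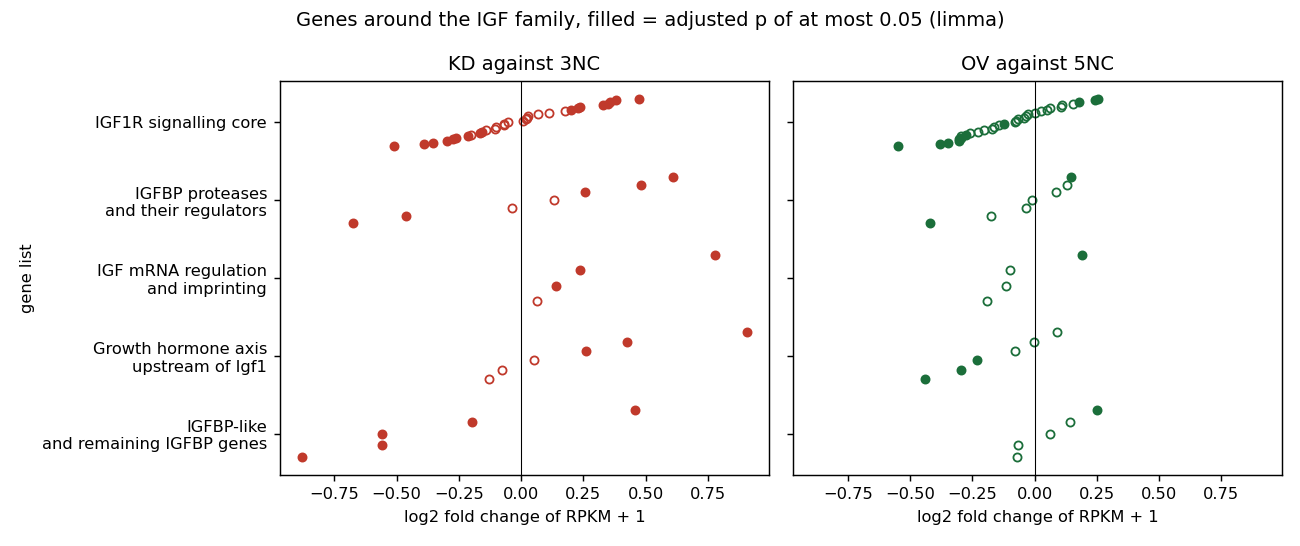
Log2 fold change of RPKM + 1 for each tested gene of 5 lists around the IGF family, KD against 3NC on the left and OV against 5NC on the right; filled points have an adjusted p of at most 0.05 in limma. In KD, 4 of the lists lie on both sides of 0 and the genes of IGF mRNA regulation lie above it, with Ghr at 0.91 and Ctgf at -0.88 at the ends.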

How the data were processed

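RNA-seq of 12 C18-4 libraries was used, 3 in each of 4 groups taken from the sample labels. According to the methods of the study, oligo(dT) beads were used to enrich mRNA, and the labels name total RNA. The authors mapped reads to reference genes with SOAPaligner and deposited RPKM values, 1 table of 17576 genes. The gene set and build are not given in the sources used here. RPKM keep no read numbers, so the authors' test (DEGseq) was not run and depth could not set intervals.

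The deposited RPKM were transformed to log2(RPKM + 1), and 11435 genes passed a minimum of 1 RPKM in 3 or more libraries. The pseudocount of 1 understates changes of low genes. One model of the 12 libraries, with the group as its term, was fitted in limma 3.58.1 (R 4.3.3; eBayes with trend). Benjamini-Hochberg adjustment ran over all genes tested. A gene was called at an adjusted p of 0.05 or less, and separately by the rule of the study. Genes under the filter were compared by exact permutation of group means. The script was tested on simulated data. The family and the gene lists were chosen with earlier results of these data known. All family genes are named, in each list at most 5 genes with the largest change among those past the threshold in KD or OV, and for family genes whose group means span at least 1 the 3 genes most alike. A gene that this naming rule picks is left out of the text, and Pappa is named outside the rule. Alternatives were another pseudocount, no filter, quantile normalization, a fit restricted to 6 libraries, a replicate block, 5NC as the control and each library left out. Python 3.11.15 with matplotlib 3.10.9 drew the figures.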

Additional observations from a re-analysis of the deposited data

How the results depend on the processing

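In KD against 3NC, 3 family genes rose, 1 fell and 0 met the rule of the study under every alternative with 3NC as the control. Between OV and KD, 2 or 3 rose and 4 or 5 fell; 3 rose without the filter, where low genes enter, and 3 met the rule of the study with no filter and a pseudocount of 0.1, an alternative chosen after seeing the data. In OV against 5NC, the number of family genes that rose was 0 and became 1 under quantile normalization (Igf2, log2 fold change 0.26, adjusted p = 0.0267 in limma), and it was between 0 and 2 with each library left out, the 2 without OV replicate 3. The number that fell was 2, and between 1 and 3 with each library left out, the 1 without OV replicate 2 and the 3 without OV replicate 1. With 5NC as the control of KD, the log2 difference of Igfbp2 reversed to -3.41, and those of Igf2, Igfbp6 and Igf2r were 0.48, 0.46 and 0.03, given without a test; this control also differs in backbone. Under quantile normalization, Igfbp6 in OV against KD passed (-0.27, adjusted p = 0.0367). Apart from the exchange of the control, 365 of 378 values of single family genes kept direction and side of the threshold, 1 lost the call, 7 gained it and 5 that were not called before or after changed sign. The log2 value could not change without the filter, with the replicate block, or in the fit to 6 libraries. Nor could it change with a library outside the comparison left out. There only the side of the threshold was open, so the tally of kept directions is partly fixed by design. Igf2 in KD was -0.010 under quantile normalization and between -0.025 and 0.064 with each library left out (below 0 without 3NC replicate 2 or KD replicate 1), Igfbp2 in KD was between -0.019 and 0.197 (below 0 without 3NC replicate 3), and Igf1r in OV was between -0.025 and 0.061 (below 0 without OV replicate 3). The causes were not tested. Replicate numbers did not pair the samples: same-numbered libraries correlated between -0.18 and 0.35 in their deviations, and 0, 3 and 3 of 6 libraries were closest to their own number in the 3 comparisons. The replicate block gave the same counts of family genes (3 higher and 1 lower in KD, 0 and 2 in OV) and moved the calls over all genes from 6335 to 6339 in KD and from 2518 to 2490 in OV. In groups of 3 libraries 1 library can decide a call, and without read numbers low genes such as Igf1 cannot be given a counting error.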
